A study of Homo sapiens with 16 samples.

Results

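RNA-Seq of MUTZ-3 cells was compared between day 6 and day 3 after transduction with a short hairpin RNA (shRNA) vector, in the 3 constructs that were harvested on both days. The 6 libraries, of 16 in the whole series, were chosen by their labels: the day 3 and the day 6 library of a non-targeting control (NTC) and of 2 shRNAs against *EVI1*, paired by construct. MUTZ-3 is a human AML cell line with inv(3), a rearrangement that places *EVI1* under a hijacked enhancer. All 6 cultures were transduced with a pLKO.1 lentivirus and put under puromycin, and all were grown with GM-CSF and with medium conditioned by 5637 cells. NTC carried the commercial hairpin SHC002, shEVI1-2531 the hairpin TRCN0000002531 and shEVI1-2532 the hairpin TRCN0000002532, and no untransduced culture was sampled on these days. Each construct and day has 1 library, so the only replication of the change with time is that over the constructs, 2 of which target the same gene. The labels name no clones and do not say whether both days come from 1 transduction, and p-values measure the spread between these cultures. The files of shEVI1-2531 carry another hairpin number in their name, so its identity rests on the sample labels. In bulk RNA, a smaller share of one kind of cell cannot be told apart from less of an RNA per cell.

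*EVI1* is a zinc finger transcription factor of hematopoietic stem cells that blocks myeloid maturation when it is expressed too highly in AML. It is transcribed from the *MECOM* locus, which also gives *MDS1* and the longer *MDS1-EVI1*. MUTZ-3 cultures hold CD34+ progenitor-like cells beside cells that mature towards monocytes and dendritic cells. Interferon-stimulated genes are switched on by the transcription factor complex ISGF3, which binds a short element in their promoters, and their products limit viral replication. Ribosomal proteins and the nuclear subunits of the respiratory chain are abundant, short messages whose levels tend to move together.

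The libraries held 95523038 to 120716213 counts, and the floor of 3 counts lay between 0.0249 and 0.0314 CPM, the TMM-scaled unit in which all levels are given. Of 60623 genes, the 17595 that reached 10 counts in 3 or more libraries were tested. The myeloid markers *MPO* (1909 to 4811 CPM), *SPI1* (201 to 554) and *CD33* (97.4 to 182) were high in all 6 libraries. *CD34* ranged from 3.61 to 647 CPM, lowest with shEVI1-2532 on both days. The summed level was 14.3 to 78.3 CPM for 7 tested B cell genes, 53.8 to 115.5 for 11 T and NK cell genes, 20.4 to 44.3 for 5 urothelial and epithelial genes and 330 to 441 for 13 megakaryocyte and platelet genes. For 13 eosinophil, basophil and mast cell genes it was 1422 to 4795 CPM, most of it from *CLC* (1206 to 4600 CPM), the Charcot-Leyden crystal protein. For 8 erythroid genes it was 199.8 to 465 CPM, most of it from the transferrin receptor *TFRC* (167 to 438 CPM), and the hemoglobin genes *HBB*, *HBA1* and *HBA2* did not reach the count minimum. The part of these lists in the results was not tested.

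The targeted gene kept its order of levels on both days. Counts are per gene over the *MECOM* locus and do not separate *EVI1* from *MDS1-EVI1*. *MECOM* (ENSG00000085276, GRCh38 chromosome 3, 169083499 to 169663775, minus strand) stood at 40.7 CPM with NTC, 13.2 with shEVI1-2531 and 5.13 with shEVI1-2532 at day 3, and at 37.4, 17.5 and 4.31 CPM at day 6. Relative to NTC of the same day, shEVI1-2531 was at 32.3% and 46.7% and shEVI1-2532 at 12.6% and 11.5%. Its change from day 3 to day 6 was 0.02 on the log2 scale (SE 0.16, adjusted p = 0.952, edgeR's quasi-likelihood test, Benjamini-Hochberg), with a ratio above 1 with shEVI1-2531 and below 1 in the other pairs.

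About as many genes rose as fell with time, most of them by little. The test was edgeR's quasi-likelihood test with construct as a block, which leaves 2 residual degrees of freedom, and genes with a Benjamini-Hochberg adjusted p under 0.05 are called changed. By this rule 2277 genes rose (12.9% of those tested) and 2235 fell (12.7%). Of these 4512 genes, 116 rose and 90 fell by more than 1 on the log2 scale. Ribosomal protein and respiratory chain genes were among those that fell, and integrins and glycolysis genes among those that rose. In each of these lists fewer genes were called with the correction for GC content and length given below. Without the NTC pair 2422 genes were called (1096 higher, 1326 lower). Scaling to the library total alone moved the median of all genes from 0.03 to 0.18 and gave 73.7% of calls as higher, against 50.5%.

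The 10 genes that rose with the smallest p had varied roles. *APOBR*, a receptor for apolipoprotein B48 (chromosome 16, 28494643 to 28498970), went from 66.5 to 214 CPM with NTC, from 137 to 273 with shEVI1-2531 and from 187 to 406 with shEVI1-2532. Every day 6 library lay above the day 3 library of its construct, with a log2 fold change of 1.27 (SE 0.13, adjusted p = 0.00164, edgeR's quasi-likelihood test). *MRC2*, an endocytic collagen receptor, rose by 1.27 (SE 0.16), most with shEVI1-2532 (67.6 to 239 CPM). *CCND1*, cyclin D1, went from 5.53 to 12.2 CPM with NTC, from 10.9 to 21.9 with shEVI1-2531 and from 6.36 to 15.7 with shEVI1-2532, a rise of 1.15 (SE 0.14), and it overlaps *LTO1*. The other 7 named by the rule rose by 0.82 to 1.04: the mannose 6-phosphate receptor *IGF2R*, the caveolar *CAVIN1*, the Wnt coactivator *BCL9L*, fatty acid synthase *FASN*, the heparan sulfate enzyme *NDST1*, *LRRC4* within *SND1*, and *TAF15*, which overlaps *AP2B1*.

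The 10 genes that fell with the smallest p included parts of the ribosome, the spliceosome and the respiratory chain. *RN7SL1*, the RNA of the signal recognition particle (chromosome 14, 49586580 to 49586878), fell from 15.1 to 6.26 CPM with NTC, from 35.3 to 9.47 with shEVI1-2531 and from 51.5 to 23.1 with shEVI1-2532. The fall was by 1.44 on the log2 scale (SE 0.16), and the gene overlaps *RPS29* on the other strand. *COX7B*, a subunit of cytochrome c oxidase (chromosome X, 77899440 to 77907376), fell from 346, 285 and 268 CPM at day 3 to 151, 149 and 146 CPM at day 6 in the order NTC, shEVI1-2531 and shEVI1-2532, so that no day 6 library reached a day 3 library. *CKS2*, a cofactor of cyclin-dependent kinases, fell by 1.03 and *ITM2A*, a membrane protein, by 1.03. *PRDX4*, *RPS27L*, *CLEC2B*, *RPS15A*, *NDUFA4* and *SNRPG* fell by 0.94 to 1.00, each at adjusted p = 0.00164 (edgeR's quasi-likelihood test).

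**Figure D1:**
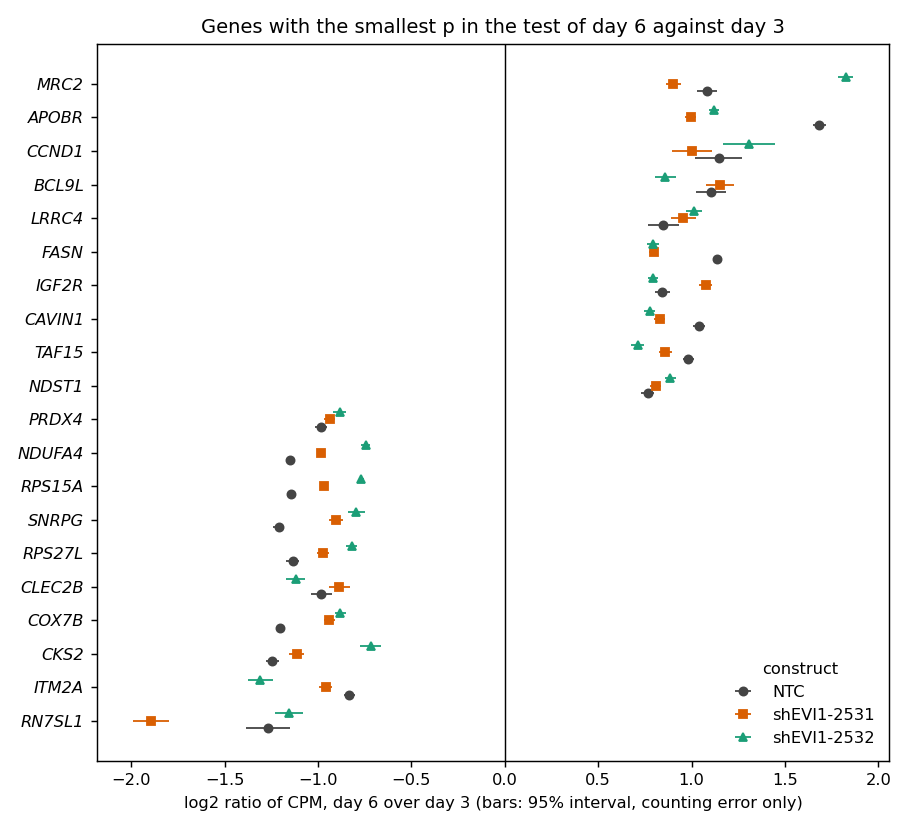
Log2 ratio of CPM between day 6 and day 3 in each construct (symbols) for the 20 genes named for the change with time, with bars for the 95% interval of counting error alone. All 3 ratios lie on the same side of 0 for each gene, and *MRC2*, *APOBR* and *RN7SL1* differ most between constructs.

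Ribosomal protein messages fell together. Of 77 tested, 66 fell and none rose, against 12.7% of all genes that fell, and the median change was -0.62 beside 0.03 for all genes. *RPS15A*, of the small subunit, fell from 1274, 1174 and 1181 CPM to 576, 599.5 and 693 CPM with NTC, shEVI1-2531 and shEVI1-2532. In 75 of the 77 the ratio was below 1 in 3 of 3 pairs, against 27.4% of all genes. *RPS3A* fell by 1.05 (SE 0.13), *RPS29* by 0.96 and *RPL24* by 0.88. Summed over the 77 genes, the level went from 228600 to 140900 CPM with NTC, from 257400 to 158500 with shEVI1-2531 and from 262000 to 195400 with shEVI1-2532. All day 6 sums were lower than all day 3 sums, and the drop was smallest with shEVI1-2532.

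The same direction held for respiration and for the host genes of small nucleolar RNAs. Of 49 nuclear respiratory chain subunits 35 fell and none rose (median -0.55), against 12.7% of all genes that fell and 12.9% that rose. *NDUFA4*, which is found with cytochrome c oxidase, stood at 433, 425 and 451 CPM at day 3 and at 195, 215 and 269 CPM at day 6. Among 13 mitochondrially encoded genes none was called in either direction (median 0.11). Of 16 genes of nonsense-mediated decay and small nucleolar RNA hosts, 10 fell, among them *ZFAS1* (by 0.93), which overlaps *ZNFX1*, while the helicase *UPF1* rose by 0.71 (SE 0.11). Without the NTC pair 5 of the 16 fell, as without the shEVI1-2531 pair.

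Cell cycle genes gave a mixed picture. Of 43 S phase genes 13 fell and 3 rose (median -0.19), and of 54 G2/M genes 16 fell and 4 rose (median -0.15). Of all genes tested 12.7% fell and 12.9% rose. *PCNA*, the sliding clamp of DNA replication, fell from 479, 392 and 248 CPM to 262, 241 and 171 CPM. *CDK1*, the mitotic kinase, fell by 0.89 (SE 0.13) and its partner *CCNB1* by 0.76, whereas *UHRF1*, which recruits DNA methyltransferase to replicated DNA, rose by 0.82. *MKI67*, a proliferation marker, was at 0.13 (SE 0.11, adjusted p = 0.447, edgeR's quasi-likelihood test). With library total scaling the G2/M list had 9 genes lower and 9 higher, and the S phase list 5 lower and 6 higher. Without the NTC pair the G2/M list had 8 lower and none higher and the S phase list 5 lower and 1 higher.

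Of 29 p53 target genes 9 fell and 1 rose (median -0.20), against 12.7% and 12.9% of all genes. *SESN1*, a stress-induced inhibitor of mTORC1 (chromosome 6, 108986437 to 109094819), stood at 114, 142 and 241 CPM at day 3 with NTC, shEVI1-2531 and shEVI1-2532 and at 65.5, 94.2 and 146 CPM at day 6. It fell by 0.70 (SE 0.10, adjusted p = 0.00173, edgeR's quasi-likelihood test). *MDM2*, which degrades p53, fell by 0.69 (SE 0.13) and *TRIAP1* by 0.78, while *CDKN1A*, the cell cycle inhibitor p21, was at -0.23 (adjusted p = 0.137, edgeR's quasi-likelihood test). Of 14 heat shock genes 6 fell and 1 rose, led by the chaperone *HSPA8*, which went from 4900, 3996 and 3465 CPM to 2467, 2606 and 2056 CPM. In the unfolded protein response 5 of 18 genes fell and 1 rose. Among 33 genes of the ATF4 response 4 fell and 7 rose, such as the amino acid transporter *SLC7A5* (by 0.65). The ATF4 share that fell, 12.1%, was near that of all genes. These 3 stress lists depended on scaling and on single pairs: with library totals the genes higher and lower were 2 and 2 for heat shock, 3 and 1 for the unfolded protein response and 12 and 0 for ATF4. Without the NTC pair they were 0 and 2, 0 and 1, and 2 and 1. Without the shEVI1-2531 pair they were 0 and 4, 0 and 2, and 4 and 1, and without the shEVI1-2532 pair 2 and 4, 1 and 3, and 5 and 3. Calls over all 17595 genes moved too, to 3575 higher and 1273 lower with library totals. They were 1096 and 1326 without the NTC pair, 1583 and 1747 without the shEVI1-2531 pair and 2043 and 2003 without the shEVI1-2532 pair.

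Of 29 hematopoietic transcription factors 6 rose and none fell (median 0.25), against 12.9% of all genes that rose. Without the NTC pair 3 rose, and with a correction for GC content and length 2. *GATA2*, a factor of stem and mast cell lineages (chromosome 3, 128479427 to 128493185), rose from 52.0 to 103 CPM with NTC, from 49.9 to 76.7 with shEVI1-2531 and from 27.9 to 61.3 with shEVI1-2532, by 0.91 (SE 0.12). *RUNX1* rose by 0.56 (SE 0.10) and *IKZF1*, a lymphoid and myeloid regulator, by 0.48 (SE 0.11).

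Myeloid maturation genes did not share 1 direction. Of all genes tested 12.9% rose and 12.7% fell. Of 32 monocyte and macrophage genes 9 rose and 4 fell (median 0.09), but 6 and 5 without the NTC pair, 5 and 7 without the shEVI1-2531 pair and 7 and 5 without the shEVI1-2532 pair. *ITGAM*, the integrin chain CD11b, rose from 24.7, 79.3 and 229 CPM to 41.1, 119.9 and 406 CPM with NTC, shEVI1-2531 and shEVI1-2532. *S100A8* fell by 0.70 (SE 0.11), *S100A9* by 0.56, *S100A12* by 0.91 and the scavenger receptor *CD36* by 0.77. *CD14*, the lipopolysaccharide coreceptor, rose by 0.66 (SE 0.18), from 0.437 to 0.581 CPM with NTC, from 10.6 to 13.8 with shEVI1-2531 and from 11.9 to 25.5 with shEVI1-2532, and was not called without the shEVI1-2532 pair (adjusted p = 0.303, edgeR's quasi-likelihood test). Of 21 dendritic and Langerhans cell genes 5 fell and 1 rose, among them the lipid antigen presenters *CD1A* (by 1.25) and *CD1C* (by 1.07), and 3 fell without the NTC pair. Of 11 leukocyte integrins 5 rose and 1 fell, *ITGAE*, and 6 of 20 Siglec and LILR receptors rose with none falling. Of these receptors 0 rose and 1 fell without the NTC pair, 2 rose without the shEVI1-2531 pair, and 2 without the shEVI1-2532 pair. In the primary granule list 2 of 15 rose, a share near that of all genes, and *MPO*, myeloperoxidase, was at 0.28 (adjusted p = 0.223, edgeR's quasi-likelihood test).

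Metabolic and signalling lists split by gene, and their counts stand beside 12.9% of all genes that rose and 12.7% that fell. Of 34 lysosome genes 11 rose and 9 fell: progranulin *GRN* rose by 0.71, the glucosidase *GAA* by 0.68 and the peptidase *TPP1* by 0.58, while *LIPA*, lysosomal acid lipase, fell by 0.70. This split was 14 and 2 with library totals, 4 and 4 without the NTC pair, 6 and 5 without the shEVI1-2531 pair and 7 and 9 without the shEVI1-2532 pair. Of 32 glycolysis and hypoxia genes 11 rose and 3 fell, with *HK2* going from 158, 164 and 172 CPM to 243, 242 and 279.8 CPM and *SLC2A3* rising by 0.60. In fatty acid synthesis 6 of 16 rose and none fell, but 1 rose without the NTC pair and 4 without the shEVI1-2531 pair. In cholesterol synthesis 6 of 23 rose, with *SREBF2* at 0.60, and 5 fell, with *IDI1* at -0.67 and *MSMO1* at -0.78, and 2 rose without the NTC pair. Of 16 NF-kappaB feedback genes 5 rose, among them the adhesion receptor *ICAM1* (by 0.65), or 3 without the NTC pair and 2 without the shEVI1-2531 pair. Of 13 TGF-beta and BMP targets the inhibitors *SKI*, *SMAD6* and *SMAD7* rose by 0.82 each. The chemokine *CXCL8* fell by 0.88 and *TGFB1* rose by 0.61. *CSF1*, the macrophage growth factor, rose by 2.20 (SE 0.41), from 0.373 to 0.737 CPM with NTC, from 0.651 to 7.76 with shEVI1-2531 and from 0.329 to 1.20 with shEVI1-2532. Of 21 MHC class I genes 5 fell, including *B2M* (by 0.79), and 2 rose. Of 16 MHC class II genes 2 fell and 2 rose, with *HLA-DRA* at -0.62 and *CD74* at 0.44. These class II shares are near those of all genes (12.7% fell and 12.9% rose). *CD74*, the invariant chain, was not called without the NTC pair (0.26, adjusted p = 0.264, edgeR's quasi-likelihood test) or without the shEVI1-2531 pair (0.43, adjusted p = 0.0523).

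**Figure D2:**
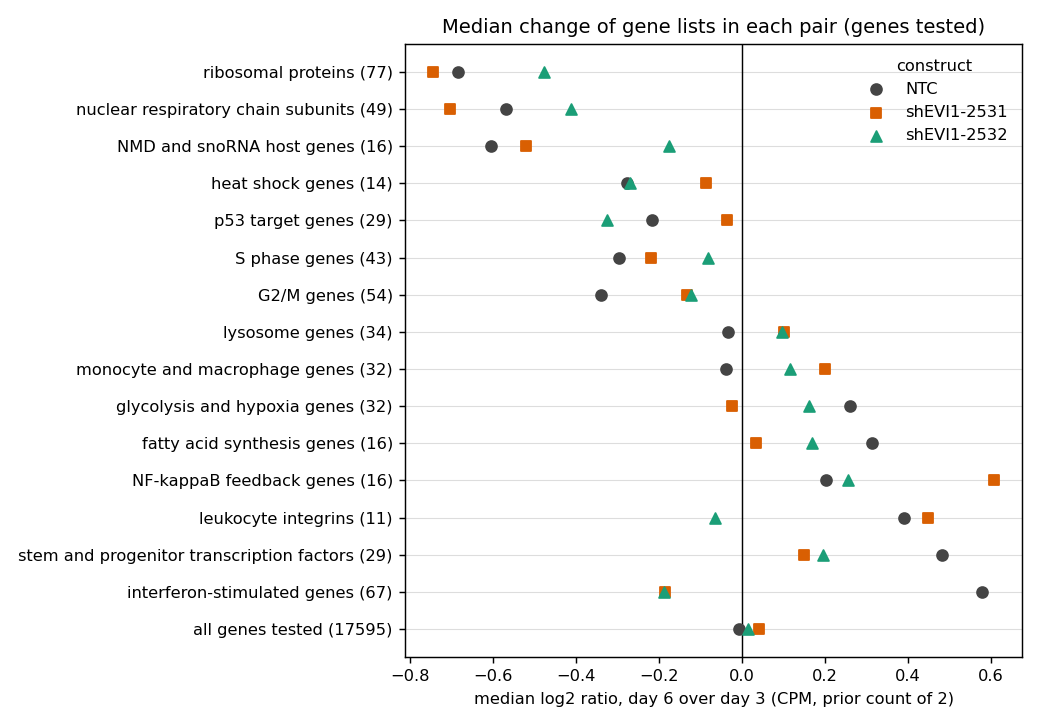
Median log2 ratio between day 6 and day 3 of the tested members of 15 gene lists and of all genes, in each construct (number of tested members in brackets). The ribosomal protein and respiratory chain medians lie below 0 with all 3 constructs, and the interferon-stimulated genes lie at 0.58 with NTC and at -0.18 and -0.19 with the shRNAs.

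The change with time ran along the base composition and the length of the transcripts. Over 11155 genes with a mean log2 CPM above 1, the Spearman correlation across genes between GC content and the day 6 to day 3 ratio was 0.678 with NTC, 0.298 with shEVI1-2531 and 0.444 with shEVI1-2532, and that with transcript length was 0.189, 0.535 and 0.296. When the genes were cut into 10 bins of like size, 37.5% fell and 0.269% rose in the bin of lowest GC content (median 37.3%), and in the bin of highest GC content (median 64.2%), 1.52% fell and 46.1% rose. Among the shortest transcripts (median 838 nt) 47.1% fell. Ribosomal proteins had a median length of 1004 nt and respiratory chain subunits one of 1039 nt, beside 2508 nt for all genes. RNA integrity is not given in the sources used here, and what GC content and length contribute to the list counts above was examined only by the corrections that follow.

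When each library's trend on GC content and length was removed before the fit, a setting chosen after seeing the data, 1059 genes were called (424 higher, 635 lower; 6.02%), of which 725 had been called in the same direction without it. With this correction 35 of 77 ribosomal proteins fell and 1 rose (median -0.36; of all genes 3.61% fell and 2.41% rose), as did 18 of 49 respiratory chain subunits with 1 rising. Of the mitochondrially encoded genes, which are short, 11 of 13 then rose. S phase genes had 2 lower and 2 higher, and G2/M genes 1 and 1. Of 11 leukocyte integrins 1 rose and 1 fell, and of 32 glycolysis and hypoxia genes 3 rose and 2 fell. In the NF-kappaB feedback, fatty acid synthesis, TGF-beta and BMP, and Siglec and LILR lists 0 genes were called in either direction. *CCND1* (0.94), *APOBR* (0.75), *LRRC4*, *TAF15*, *GATA2* (0.51), *RUNX1* (0.36) and *ITGAM* (0.37) rose in both fits, and *SESN1* (-0.58), *HSPA8* (-0.68), *CD1A* (-1.05), *RPS15A* (-0.82) and *COX7B* (-0.67) fell in both. *FASN* (0.09), *CKS2* (-0.24), *PCNA* (-0.27) and *CDK1* (-0.19) were among those called only without the correction. Of 76 single genes called for the change with time without it, 43 lost the call with it. With the correction, 1 gene was called without the NTC pair, 278 genes were called without the shEVI1-2531 pair and 660 without the shEVI1-2532 pair.

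**Figure D3:**
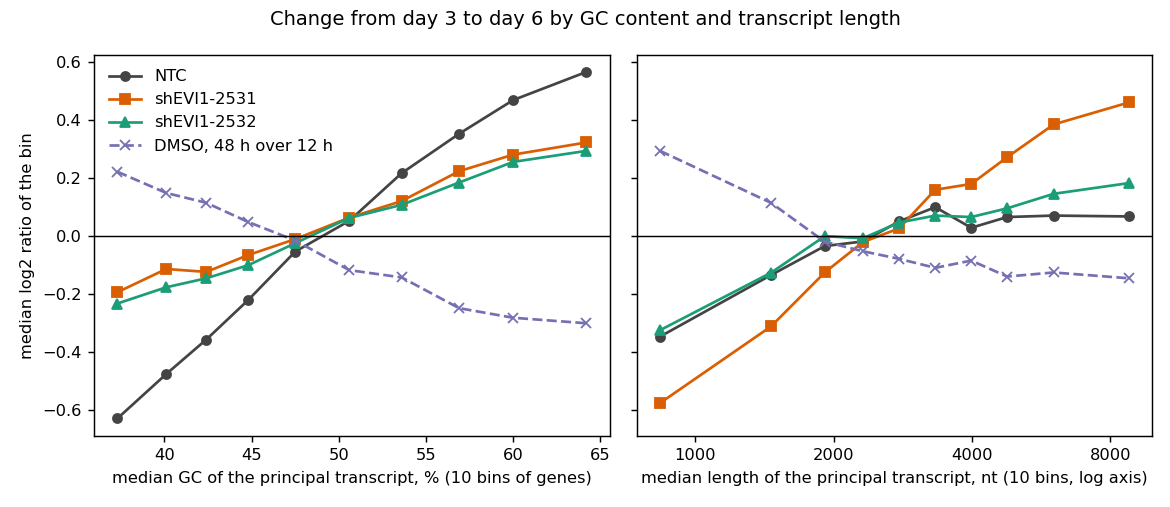
Median log2 ratio between day 6 and day 3 in 10 bins of 11155 genes ordered by transcript GC content (left) and length (right, log axis), for each construct, and the same for untransduced MUTZ-3 cells given DMSO, 48 h over 12 h. The medians climb with GC content in all 3 constructs, steepest with NTC from -0.63 to 0.57, climb with length most with shEVI1-2531, and run the other way in the DMSO libraries.

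Whether the change with time differed between the EVI1 shRNAs and NTC was tested as an interaction of day with shRNA, which leaves 1 residual degree of freedom. By edgeR's quasi-likelihood test, 0 of 17595 genes (0.0%) were called. At an unadjusted p under 0.05 there were 1090, of which 664 were higher (3.77%) and 426 lower (2.42%) with the shRNAs, and DESeq2 called 25 genes and limma voom 9. In the fit with separate changes, 2139 genes (12.2%) were called with the shRNAs (6.16% higher, 6.0% lower) and 1524 (8.66%) with NTC (3.36% higher, 5.3% lower), which does not show that these sets differ. The NTC calls rest on 1 pair, with a spread taken from the shRNA pairs and from all genes. In the test of the difference, too, the residual is the disagreement between the 2 shRNA pairs, moderated over genes. Neither the NTC calls nor the SE and p-values of the difference measure variation between NTC cultures. Among the genes called with the shRNAs, 184 (1.05% of those tested) also had an unadjusted p under 0.05 for the difference from NTC.

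The 5 genes ranked first by p among those lower with the shRNAs were *MX1*, *OAS2*, *IFIT1*, *OAS1* and *IFI6*, all of them interferon-stimulated. Of 67 such genes tested, 39 had an unadjusted p under 0.05 and were lower with the shRNAs, against 2.42% of all genes, and none was higher. In 31 of the 67 the level went up with NTC and down with both shRNAs, against 6.02% of all genes, and in 52 both shRNA ratios were below that of NTC, against 30.8%. The opposite patterns were found in 2 genes (8.61% of all genes) and in 7 genes (38.4%). The median ratio was 0.58 with NTC, -0.18 with shEVI1-2531 and -0.19 with shEVI1-2532. The summed level went from 2681 to 4271 CPM with NTC, from 2935 to 2694 with shEVI1-2531 and from 2675 to 2635 with shEVI1-2532, so that at day 3 the 3 cultures lay close together and at day 6 NTC stood above. None of these genes was called in the adjusted test.

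Stretches of the promoters of 4 of these genes are shown to place the values beside the core of the element to which ISGF3 binds. The core, in capitals, was searched as GAAA, any 2 bases and GAAA on both strands of the 250 bases before the RefSeq gene start (GRCh38.p14), and on the opposite strand it reads TTTC, any 2 bases and TTTC. Several of these promoters hold more than 1 match, which can overlap, and 1 is printed for each. The windows for *IFIT1* (chr10:89392510-89392539, plus strand), *IFI6* (chr1:27672329-27672358, minus strand), *IFI27* (chr14:94110631-94110660, plus strand) and *ISG15* (chr1:1013380-1013409, plus strand) read as follows.
IFIT1: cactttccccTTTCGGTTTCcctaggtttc
IFI6: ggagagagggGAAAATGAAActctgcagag
IFI27: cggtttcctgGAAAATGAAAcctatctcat
ISG15: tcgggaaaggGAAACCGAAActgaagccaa
The match lay in 26 of 48 tested interferon-stimulated genes with a promoter in the table (54.2%). It lay in 2.63% of 10783 tested genes with a promoter there and in 3.07% of all 27305 promoters. Since interferon-stimulated genes are switched on through this element, a high share was fixed by the list and says nothing about the change with time. In *MX1*, *OAS1* and *CD34* these letters were not found in this window, and *OAS2* and *SIGLEC1* had no promoter there to search. The median difference of the change between shRNAs and NTC was -0.96 for the 26 genes with the match and -0.61 for the 22 without. These medians were not compared by a test, and whether ISGF3 acted in these cultures was not tested.

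*MX1*, a dynamin-like GTPase that blocks viruses (chromosome 21, 41420304 to 41459214), stood at 24.8, 22.2 and 15.1 CPM at day 3 with NTC, shEVI1-2531 and shEVI1-2532, and at 87.3, 16.3 and 9.37 CPM at day 6. It was higher at day 6 with NTC alone, and the difference of the changes was -2.38 (SE 0.26, unadjusted p = 6.4e-06, adjusted p = 0.0679, edgeR's quasi-likelihood test). *OAS2*, which makes the activator of RNase L, went from 40.8 to 110.2 CPM with NTC, from 13.3 to 8.42 with shEVI1-2531 and from 5.93 to 3.14 with shEVI1-2532, a difference of -2.21 (SE 0.26, adjusted p = 0.0679). Both genes were already lower with both shRNAs than with NTC at day 3, *MX1* by less. *IFI6*, a mitochondrial protein, was highest with shEVI1-2531 at day 3 (291 CPM, against 81.2 with NTC and 113 with shEVI1-2532) and stood at 67.8 CPM there at day 6 while NTC reached 189 CPM, so that the order of the cultures turned over between the days. *SIGLEC1*, a sialic acid receptor of macrophages, turned over in the same way, from 3.68 to 13.1 CPM with NTC, from 7.63 to 4.93 with shEVI1-2531 and from 5.27 to 2.79 with shEVI1-2532.

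*IFIT1*, which binds RNA lacking a host cap (overlapping *LIPA*), gave a difference of -2.49 (SE 0.31), *OAS1* one of -1.96 (SE 0.26) and *IFI27* one of -3.42 (SE 0.41). The size of these differences hardly moved over the 15 settings tried, that of *MX1* between -2.46 and -2.32, but the call did: *MX1*, *OAS2*, *IFIT1*, *OAS1* and *IFI6* passed an adjusted p of 0.05 in 10 of 15 settings, with *MX1* between 2.61e-14 and 0.265, and not in the test reported above (edgeR's quasi-likelihood test for 13 of the settings). All 15 settings refit the same 6 libraries and none leaves out a pair, so the steady size is no independent support. With a correction for GC content and length the median difference of the 67 genes was -0.81, beside -0.76 without.

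**Figure D4:**
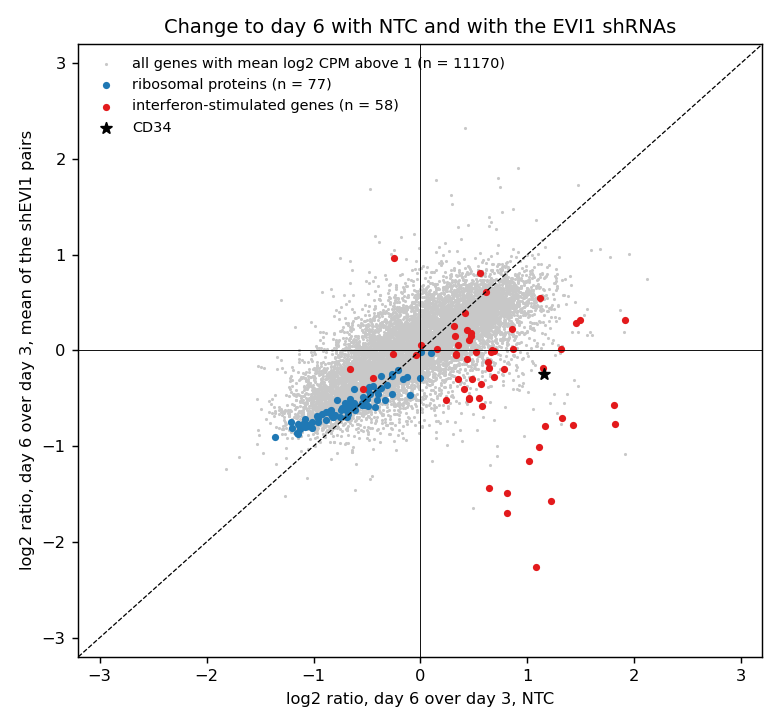
Log2 ratio between day 6 and day 3 with NTC (x axis) against the mean of the 2 shEVI1 pairs (y axis) for 11170 genes with a mean log2 CPM above 1, 2 of which lie outside the axes, and the line of equal change (dashed). Ribosomal proteins lie in the lower left near the line, and most of the 58 interferon-stimulated genes and *CD34* lie right of 0 and below the line.

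Several progenitor genes were higher at day 6 with NTC, *CD34* and *ERG* with NTC alone, without passing the adjusted test of the difference. *CD34*, the stem and progenitor sialomucin (chromosome 1, 207880972 to 207911402), stood at 290.5 CPM at day 3 and 647 CPM at day 6 with NTC, at 88.1 and 78.9 CPM with shEVI1-2531 and at 4.57 and 3.61 CPM with shEVI1-2532. The 3 cultures had the same order on both days, with 1 library each. The difference of the changes was -1.40 (SE 0.22, adjusted p = 0.165, edgeR's quasi-likelihood test), called in 7 of 15 settings. *HLF*, a stem cell factor, went from 3.62 to 13.7 CPM with NTC and stayed below 0.5 CPM with both shRNAs (difference -2.99, SE 0.48). *ERG*, an ETS factor of stem cells, went from 22.5 to 39.0 CPM with NTC, from 2.595 to 2.02 with shEVI1-2531 and from 0.658 to 0.362 with shEVI1-2532. Beside these progenitor genes, *FADS2* is a desaturase of polyunsaturated fatty acids that shares its locus with *FADS1* and *FEN1*. It went from 113.9 to 317 CPM with NTC, from 43.1 to 43.0 with shEVI1-2531 and from 4.18 to 5.45 with shEVI1-2532. Of 29 hematopoietic transcription factors 7 had an unadjusted p under 0.05 and were lower with the shRNAs (2.42% of all genes), and 1 was higher (3.77%). Of 18 progenitor surface genes 4 were lower and 1 was higher by the same threshold. In 10 of the 18 both shRNA ratios were below that of NTC (30.8% of all genes) and in 5 above (38.4%). *KIT* did not follow *CD34*. It went from 34.1 to 18.8 CPM with NTC, from 41.2 to 41.6 with shEVI1-2531 and from 11.5 to 9.44 with shEVI1-2532.

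In the other direction the 5 genes ranked first by p were *ALCAM*, *U2AF1*, *SLC8A1*, *C3* and *FAM126B*, none of which was called. *ALCAM*, an adhesion molecule, went from 10.2 to 5.40 CPM with NTC, from 8.13 to 12.7 with shEVI1-2531 and from 13.6 to 20.2 with shEVI1-2532 (difference 1.53, SE 0.27, adjusted p = 0.222, edgeR's quasi-likelihood test). *C3*, complement component 3, overlaps *GPR108* and reached 12.0 CPM with shEVI1-2531 and 171 CPM with shEVI1-2532 from 3.53 and 23.2 CPM, beside 5.52 and 7.39 CPM with NTC. *SLC8A1*, a sodium and calcium exchanger, went from 15.8 to 30.9 CPM with shEVI1-2531, from 35.8 to 56.8 with shEVI1-2532 and from 16.2 to 11.6 with NTC, and *FAM126B* overlaps *NDUFB3*. *U2AF1* ranged from 0.404 to 79.8 CPM, and since the near-identical copy *U2AF1L5* is counted separately, its values are uncertain. Primary granule genes had 5 of 15 members with an unadjusted p under 0.05, all higher with the shRNAs, against 3.77% of all genes: *MPO* went from 3347 to 2736 CPM with NTC, from 3391 to 4811 with shEVI1-2531 and from 1909 to 2926 with shEVI1-2532 (adjusted p = 0.788, edgeR's quasi-likelihood test), and *BPI*, a bactericidal protein, differed by 0.98 (SE 0.21). The chitinase-like *CHI3L1* differed by 2.15 (SE 0.46) and the lipopolysaccharide receptor *TLR4* by 1.19 (SE 0.29).

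**Figure D5:**
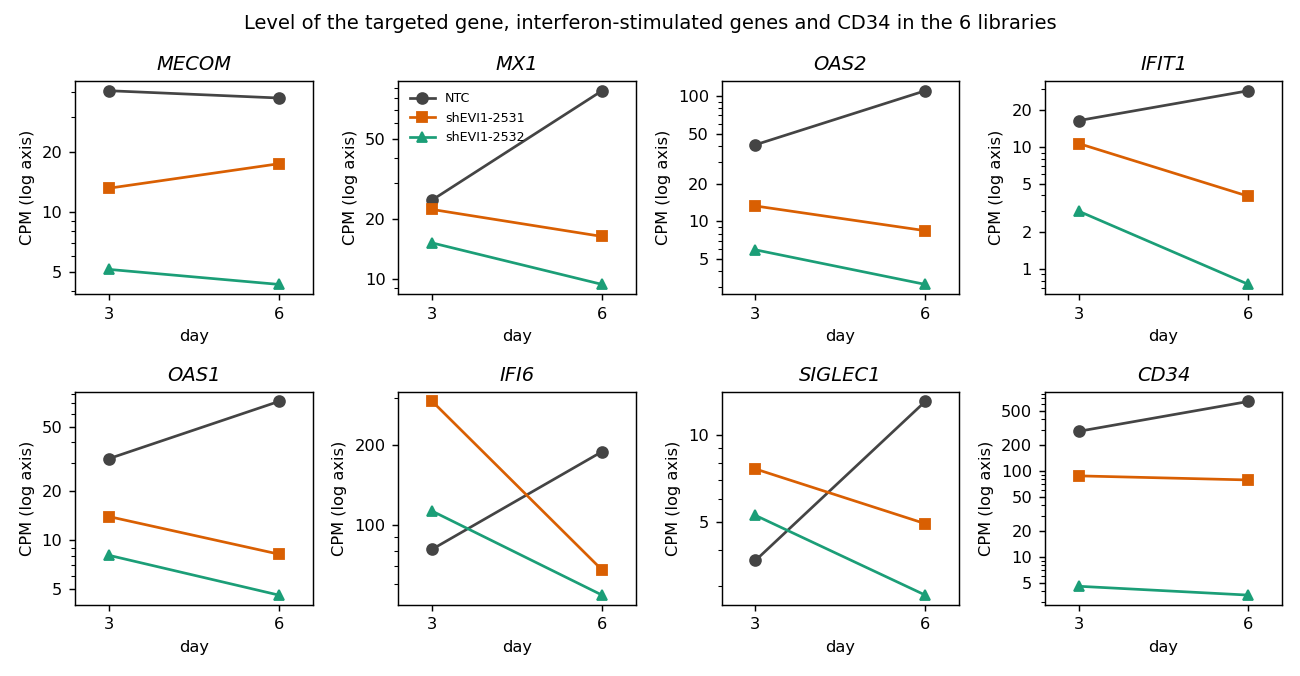
Level (CPM, log axis) of *MECOM*, 6 interferon-stimulated genes and *CD34* at day 3 and day 6 with NTC, shEVI1-2531 and shEVI1-2532, 1 library per point. *MECOM* keeps its order, and the other 7 genes go up with NTC and down with both shRNAs.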

How the data were processed

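RNA was extracted with RNeasy Plus and libraries were made with the TruSeq Stranded mRNA kit. The authors deposited raw counts per gene and TPM for each library. The submitters' processing notes name STAR, Picard and featureCounts and the build hg38/GRCh38, without versions, and whether counting used strand is not given in the sources used here. The deposited TPM equalled the counts divided by the whole span of each gene (largest relative deviation 5e-15) and served only as this check.

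Counts were analysed with edgeR 4.0.16 (quasi-likelihood test, TMM) in R 4.3.3. Genes with 10 counts in 3 of 6 libraries were kept. The change with time was fitted with construct as a block, and its difference between the EVI1 shRNAs and NTC as an interaction. P-values were adjusted by Benjamini-Hochberg over 17595 genes, with a threshold of 0.05. CPM used TMM-scaled totals, and log2 ratios of a pair a prior count of 2. Intervals and floors cover counting error only. Transcript length and GC content came from GENCODE 29 (principal transcript, 98.9% of genes tested). Alternatives used DESeq2 1.42.0, limma 3.58.1 voom, other scalings and filters, and each pair left out. Genes were named by rank of p in each direction (10 for the change with time, 5 for the difference), by smallest p within lists, and as defining members. Scripts were tested on simulated data. Members and lists were chosen with earlier results of these data known. Drug-treated libraries were left out, and the DMSO libraries were used only for description. Promoter sequences came from RefSeq (GRCh38.p14). Values of some listed genes are not reported here.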

Additional observations from a re-analysis of the deposited data

How the results depend on the processing

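The 4512 genes changed with time were 4049 to 4988 under DESeq2, limma voom, other scalings, other filters and a length correction, and 3572 with a GC correction. Leaving out 1 pair gave 2422 to 4046 genes. With corrections for both GC content and length there were 1059, or 1312 with the longest instead of the principal transcript, and 1, 278 and 660 without the NTC, shEVI1-2531 or shEVI1-2532 pair. An adjusted p of 0.01 left 2028 and a log2 change beyond 1 left 206. The reported fit pairs the libraries by construct. Without the construct block edgeR's quasi-likelihood test called 0 genes (2055 at an unadjusted p under 0.05).

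The difference between shRNAs and NTC gave 0 calls, but 25 with DESeq2, 9 with limma voom, 9 with DESeq2 size factors, 69 with upper quartile scaling, 102 with no filter, 6 above a mean log2 CPM of 3 and 22 with a GC correction. The corrections were added after seeing the data, in 3 forms with 2 transcript definitions, and the principal transcript was tried after the calls of the longest had been seen. With the longest transcript they gave 22, 9 and 9 genes for GC, length and both, and with the principal 22, 0 and 0 (728 at an unadjusted p under 0.05 with both).

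The 2139 genes called with the shRNAs became 3406 with upper quartile scaling, 3386 with no filter, 0 with the length correction, 0 with both corrections (3180 unadjusted), 349 with both and the longest transcript, 1 at 0.01 and 156 beyond log2 1. The 1524 called with NTC became 2427 with limma voom, 3066 with upper quartile, 897 with library totals, 2955 with no filter, 2768 above a mean log2 CPM of 3, 255 with GC, 0 with both (2258 unadjusted), 217, 2797 and 45 with the longest transcript for GC, length and both, 0 at 0.01 and 525 beyond log2 1. The cause was not tested.

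The sign turned for *CIITA* (-0.02527 with both corrections, -0.02327 with the longest transcript), *MCM5* (-0.001536 and -0.07618), *MPO* (-0.07639 and -0.03767) and *MKI67* (-0.2725 and -0.2718, and -0.1082 and -0.1095 with length alone). *MECOM* turned to -0.005766 with upper quartile, -0.07498 and -0.125 with length, -0.01307 with both and the longest transcript, and over the left-out pairs its change ran from -0.1826 without shEVI1-2531 to 0.1409 without shEVI1-2532, and its difference between shRNAs and NTC from -0.1279 to 0.5301. Of 76 single genes called for the change with time, 43 lost the call with both corrections.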

Other observations

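Interferon-stimulated genes were also higher late than early in untransduced MUTZ-3 cells given DMSO, with 1 library each at 12, 24 and 48 h and no test run. The median log2 ratio of 48 h over 12 h was 0.95 over 67 genes, beside 0.03 over 16480 genes, and that of *MX1* was 1.69 (43.5, 45.9 and 141 CPM at 12, 24 and 48 h). Summed over 68 genes that passed the filter there, the level was 3692, 3803 and 6225 CPM, close together at 12 and 24 h. Ribosomal proteins went the other way from the transduced cells there, with a median of 0.50 and a sum of 120600, 146700 and 177000 CPM. The DMSO libraries were scaled separately, and the times differ from those after transduction.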
